A study of Saccharomyces cerevisiae with 4 samples.

Results

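Mating and pheromone response genes of Saccharomyces cerevisiae were followed on 4 arrays that compared cells lacking lpz8 with wild-type cells in high and in low copper. The genes were chosen by name, as 36 genes for pheromones, receptors, other genes particular to a mating type, the signalling cascade and pheromone-induced products. All 36 were found in the platform annotation, on 43 of the 8832 spots, among 5574 named genes. On each array, Cy5 marked total RNA of the null cells and Cy3 that of the wild-type cells. The null cells were grown in high copper for 2 arrays and in low copper for the other 2. One array of each condition, high copper replicate 1 and low copper replicate 2, was labelled a repeat. The labels gave no strain background, mating type, copper concentration or growth medium, and did not say in which copper the wild-type cells grew. The name lpz8 was read as HAA1, from the series title and from the values of the HAA1 spot. The labels do not pair the names, so those values, given below, are no separate check of the deletion. HAA1 encodes a transcription factor related to copper-responsive activators. The study's purpose, as far as its title states it, was to find transcripts under this factor.

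Haploid yeast cells are of type a or type alpha. Cells of type a secrete a-factor and carry the receptor Ste2 for alpha-factor, and alpha cells secrete alpha-factor and carry the receptor Ste3 for a-factor. A bound receptor releases the beta and gamma subunits of a G protein, which start a chain of the kinases Ste20, Ste11, Ste7 and Fus3 that the scaffold Ste5 helps to hold together. The chain acts through the transcription factor Ste12 on genes for cell adhesion, cell-cycle arrest and fusion. No pheromone treatment is named in the labels, so the genes were compared in cells not described as mating.

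Each value below is a log2 ratio of null over wild type, centred on its array, and values below 0 mean less RNA in the null cells. The log base and the direction were not stated in the sources used here, and were taken as log2 and, from the dyes, as Cy5 over Cy3. HAA1 stood at -6.96 and -4.15 on high copper replicates 1 and 2 and at -7.35 on low copper replicate 2, with no value on low copper replicate 1. The arrays held 7254 to 8409 values. Low copper replicate 1 stood apart, with no value for 17.9% of spots against 4.79% to 5.82% on the other 3, and a standard deviation over genes of 0.66 against 0.35 to 0.39. The Pearson correlation across the 5137 genes tested was 0.71 between the high copper arrays and 0.46 between the low copper arrays, and genes are not independent replicates. High copper replicate 1 holds a run of 528 spots whose values lie 24 places from their positions, and 0 of the 36 genes have a spot in it or in the 24 spots after it. The null RNA carried the same dye on all 4 arrays, so dye and genotype cannot be told apart for any gene. The labels do not say that the arrays came from separate cultures. Unless no copper term is named, p-values here rest on the spread between arrays of the same copper condition, partly borrowed from all genes. That spread may be technical. An SD over 4 arrays also holds the gap between the conditions.

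Over both copper conditions, 5 of the mating genes passed the test, with 3 lower and 2 higher in null cells. The lower genes were FUS1, PRM1 and KAR4, products or regulators of cell and nuclear fusion, and the higher ones were PRM5 and the alpha-factor gene MF(ALPHA)1. The test was limma's, with p-values adjusted by Benjamini-Hochberg over 5137 genes at a threshold of 0.05. It covered 26 of the 36 genes, those with a spot measured on all 4 arrays. Of all genes tested, 11.7% passed, 5.24% as lower and 6.44% as higher, against 5 of 26 here (19.2%). The median of the 26 genes was -0.07, and that of all genes tested -0.02. On all 4 arrays 7 of the 26 lay below 0, 3 lay above it and 16 changed sign, shares of all genes being 21.6%, 20% and 58.4%. Fitted without either high copper array, 0 of the 26 passed, and 0 of all genes. Without 1 of the low copper arrays the calls rose among the 26 and among all genes alike, and such a fit rests on 1 array in low copper. With the arrays labelled as repeats taken as a block, 0 of the 26 passed, and 36 of all genes. With no copper term PRM1 and PRM5 alone passed.

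**Figure D1:**
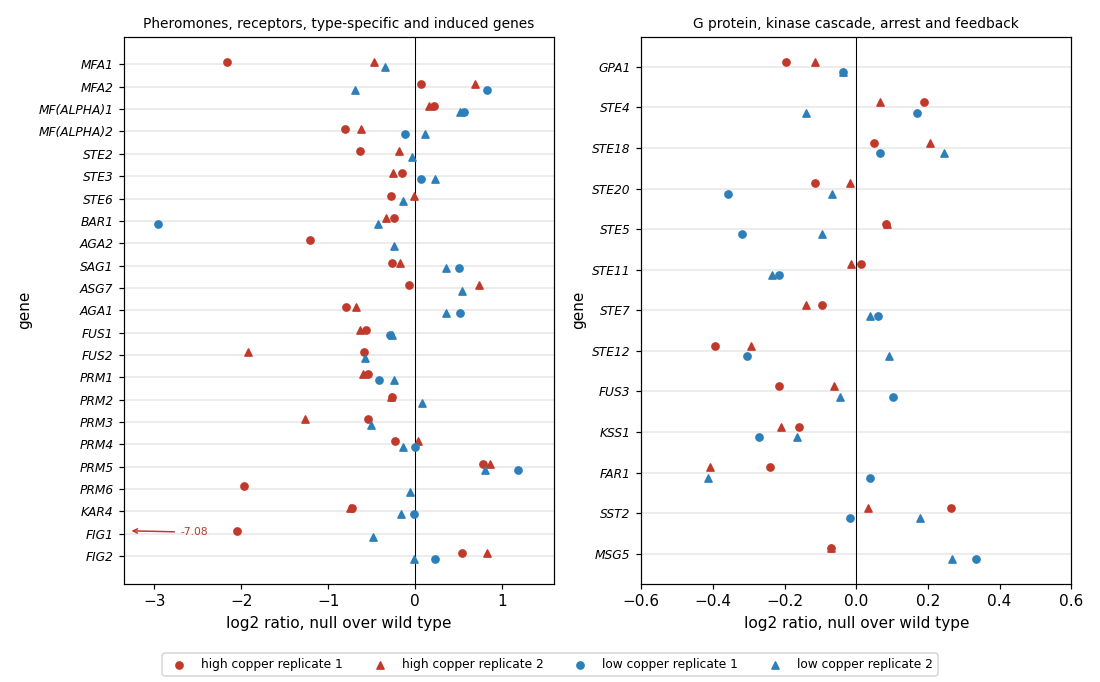
Log2 ratio of null over wild type (horizontal axis) for each of the 36 genes on each array, with circles for replicate 1 and triangles for replicate 2 of high copper (red, upper row of a gene) and low copper (blue, lower row). The 2 panels have different horizontal scales, and the arrow marks a value of -7.08 for FIG1 beyond the axis. AGA1, SAG1 and KAR4 show red points left of blue ones, and PRM5 lies right of 0 on all 4 arrays.

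Of the 6 tested genes placed here in the pheromone-induced group, 4 passed over both conditions, where 11.7% of all genes did. PRM5 was higher, and FUS1, PRM1 and KAR4 were lower. PRM5 (YIL117C), which encodes a membrane protein that cell wall stress also induces, stood at 0.78 and 0.86 in high copper and at 1.18 and 0.81 in low copper. All 4 values were well above 0 and the copper conditions overlapped. Its mean was 0.91 ± 0.18 (SD, n = 4), 1.88-fold higher in null cells, with a limma adjusted p of 0.0204, the lowest among the mating genes. Its 2 spots gave means that differed by 0.07.

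FUS1 (YCL027W), a membrane protein of the mating projection needed for cell fusion, stood at -0.57 and -0.63 in high copper and at -0.29 and -0.27 in low copper. It was below 0 on all 4 arrays and lower in high copper, a difference with a limma adjusted p of 0.301. The mean was -0.44 ± 0.19 (SD, n = 4), 1.36-fold lower in null cells, with a limma adjusted p of 0.0265, or of 0.0556 with no copper term. It was spotted 3 times, and the spot means lay up to 0.43 apart. In high copper the spots stood between -0.75 and -0.40, and in low copper between -0.73 and -0.02. At 1 spot the conditions overlapped, with -0.66 and -0.75 in high copper and -0.73 and -0.50 in low copper, while at the others high copper lay lower.

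PRM1 (YNL279W), a protein that acts in the merger of the plasma membranes of mating partners, stood at -0.54 and -0.60 in high copper and at -0.42 and -0.24 in low copper. Its mean of -0.45 ± 0.16 (SD, n = 4) was 1.37-fold lower in null cells, with a limma adjusted p of 0.0305.

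KAR4 (YCL055W), a regulator of karyogamy genes that works with Ste12, had its low values on the high copper arrays. It stood at -0.73 and -0.74 in high copper and at -0.01 and -0.17 in low copper, and its 2 spots differed by 0.11 in their means. The mean was -0.41 ± 0.38 (SD, n = 4), an SD that includes the gap between conditions. The limma adjusted p, which leaves that gap out, was 0.0333 over both conditions and 0.0356 in high copper, against 0.485 in low copper. With no copper term it was 0.15 over both conditions.

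**Figure D2:**
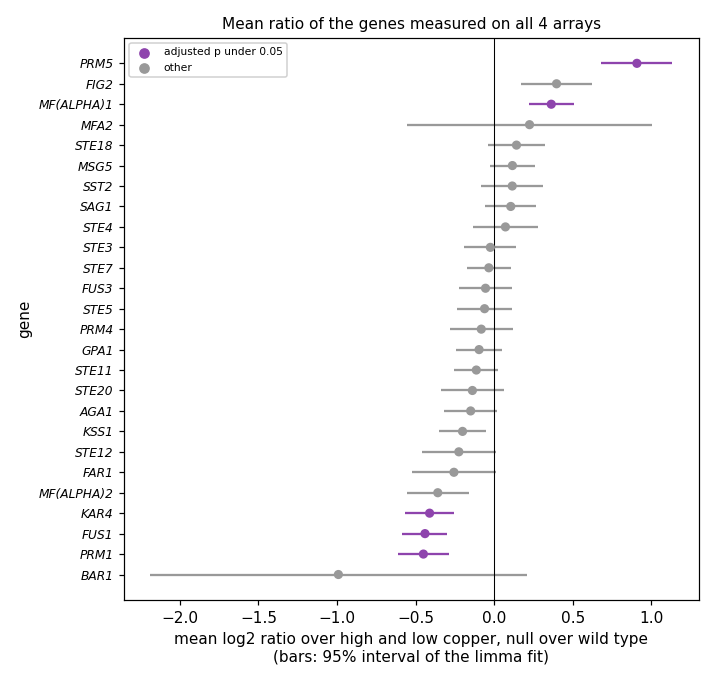
Mean log2 ratio over high and low copper (horizontal axis) for the 26 genes measured on all 4 arrays, in order of their means, with bars for the 95% interval of the limma fit and purple for an adjusted p under 0.05. PRM5 at 0.91 and MF(ALPHA)1 at 0.36 lie above 0 with intervals that leave it out, and PRM1, FUS1 and KAR4 lie between -0.45 and -0.41.

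The other pheromone-induced genes did not pass. FIG2 (YCR089W), a cell wall adhesin of mating cells, stood at 0.54 and 0.83 in high copper and at 0.23 and -0.01 in low copper, a mean of 0.40 ± 0.37 (SD, n = 4) with a limma adjusted p of 0.0561. Its 2 spots disagreed. One stood at 1.13 and 1.64 in high copper and 0.42 and 0.21 in low copper, and the other at -0.05 and 0.02 in high copper and 0.04 and -0.23 in low copper. Their means lay 0.90 apart, while the median distance over the 805 genes with several complete spots was 0.09 and 9.07% of those genes lay over 0.5 apart. With spots fitted separately, the higher spot had a limma adjusted p of 0.032, so the value of FIG2 rests on which spot is read. With the displaced run of high copper replicate 1 moved back, the averaged spots had 0.0494, though they lie outside the run and their mean stayed at 0.40. PRM4 stood between -0.24 and 0.04 on the 4 arrays.

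**Figure D3:**
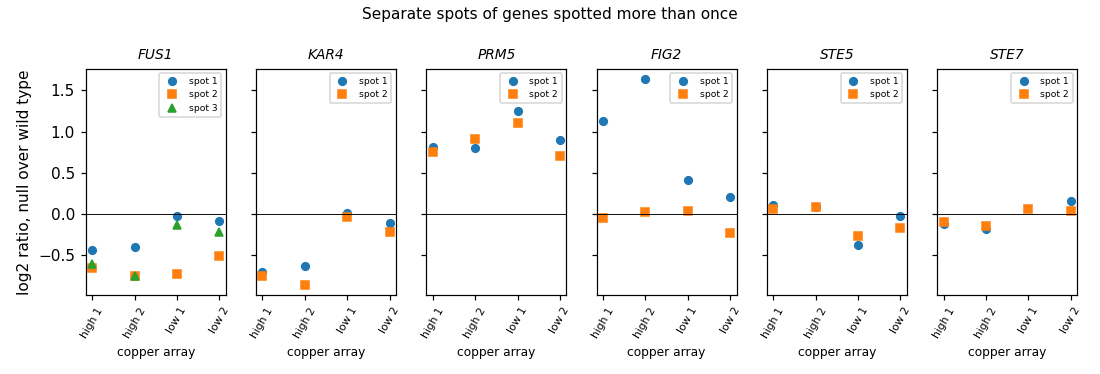
Log2 ratio of null over wild type (vertical axis) of each spot of the 6 genes with more than 1 spot, on the 2 high copper arrays and the 2 low copper arrays. The spots of KAR4 and PRM5 lie together, the FUS1 spots spread in low copper, and the 2 FIG2 spots lie apart in high copper.

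Low copper replicate 1 lacked values for 5 pheromone-induced genes, and 0 of the 4 that could be tested on the other arrays passed. FUS2, which acts in cell fusion, stood at -0.59 and -1.92 in high copper and at -0.58 in low copper. PRM3, a protein of nuclear fusion, stood at -0.54 and -1.27 in high copper and at -0.51 in low copper. PRM2 stood at -0.27 and -0.28 in high copper and at 0.08 in low copper. FIG1, a membrane protein of calcium entry during mating, stood at -2.05 and -7.08 in high copper and at -0.49 in low copper. FIG1 was below 0 on all 3 arrays but its values spread over more than 6 log2 units, and no fold is given because the signal behind them is not known. When genes with values on 3 arrays were let into the limma fit, the adjusted p was 0.177 for FUS2, 0.119 for PRM3, 0.401 for PRM2 and 0.258 for FIG1. PRM6, a potassium channel gene, had 1 value per condition, -1.97 in high copper and -0.06 in low copper.

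The pheromone genes did not move together. MF(ALPHA)1 (YPL187W), the main source of alpha-factor, stood at 0.22 and 0.16 in high copper and at 0.56 and 0.52 in low copper. All 4 values were above 0, and low copper gave the larger ones. The mean was 0.36 ± 0.20 (SD, n = 4), 1.29-fold higher in null cells, with a limma adjusted p of 0.0346, or of 0.0815 with no copper term. MF(ALPHA)2 (YGL089C), the minor alpha-factor gene, stood at -0.81 and -0.63 in high copper and at -0.11 and 0.11 in low copper. Its mean of -0.36 ± 0.43 missed the threshold with a limma adjusted p of 0.0531, and of 0.0583 in high copper. Over both conditions the adjusted p was 0.0461 once the displaced run was moved back, though its spot lies outside the run and its mean stayed at -0.36. It was 0.226 with no copper term and 0.102 with the repeat arrays as a block. The 2 genes encode nearly the same peptide, and how far their spots take up each other's RNA was not tested.

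The a-factor genes were spread widely. MFA1 stood at -2.17 and -0.47 in high copper and at -0.34 on low copper replicate 2, a mean of -0.99 ± 1.02 (SD, n = 3). MFA2 stood at 0.07 and 0.70 in high copper and at 0.82 and -0.69 in low copper, a mean of 0.22 ± 0.69 (SD, n = 4). The low copper values of MFA2 lay 1.51 log2 units apart, more than the 0.31 between its condition means. Their limma adjusted p-values were 0.269 in the fit over at least 3 arrays and 0.591. MFA1 and MFA2 encode the same mature pheromone, so their spots may likewise share RNA.

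On low copper replicate 1, most genes known to be transcribed in a cells were without a value, and those of alpha cells had one on every array. On the other arrays only AGA2 of the a-specific genes lacked a value, on high copper replicate 2. Of 7 a-specific genes 5 had no value on low copper replicate 1, namely MFA1, STE2, STE6, AGA2 and ASG7, whereas 0 of 4 alpha-specific genes (MF(ALPHA)1, MF(ALPHA)2, STE3 and SAG1) had none. Of all named genes 7.23% had no value on that array, and of the 11 pheromone-induced genes 5 had none. The intensities and the rule by which values were left out were not used here, and the mating type of the cells is not in the labels, so the levels of either set cannot be given.

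Among the receptors, STE2 stood at -0.64 and -0.19 in high copper and at -0.04 on low copper replicate 2, and STE3 at -0.15 and -0.26 in high copper and at 0.07 and 0.23 in low copper. Neither passed, with limma adjusted p of 0.318 for STE2 in the fit over at least 3 arrays and 0.782 for STE3. STE6, the exporter of a-factor, stood at -0.28 and -0.01 in high copper and at -0.13 in low copper. ASG7, a regulator of signalling in the newly formed zygote, stood at -0.07 and 0.74 in high copper and at 0.54 in low copper. BAR1, the secreted protease that degrades alpha-factor, stood at -0.24 and -0.34 in high copper and at -2.96 and -0.42 in low copper. It was below 0 on all 4 arrays, and low copper replicate 1 set its mean of -0.99 ± 1.32 (SD, n = 4, limma adjusted p = 0.19). Without that array its fitted mean was -0.36, and without low copper replicate 2 it was -1.63.

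The agglutinins, the surface proteins by which partner cells stick together, included the gene with the largest gap between copper conditions relative to its error. AGA1 (YNR044W), which anchors the a-agglutinin, stood at -0.80 and -0.68 in high copper and at 0.52 and 0.36 in low copper. The 2 conditions lay on opposite sides of 0. It was lower in null cells in high copper, at -0.74 with a limma adjusted p of 0.041, and stood at 0.44 in low copper with 0.0837. SAG1 (YJR004C), the alpha-agglutinin, had the same signs with smaller values, -0.26 and -0.18 in high copper and 0.51 and 0.35 in low copper. SAG1 did not pass in either condition (limma adjusted p of 0.216 and 0.0837). AGA2, the binding subunit of the a-agglutinin, had 1 value per condition, -1.22 in high copper and -0.25 in low copper.

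In high copper alone, 3 of the 26 genes passed, AGA1, KAR4 and FUS1, all lower in null cells. Of all genes tested 2.57% passed in high copper, 1.5% as lower and 1.07% as higher. An unadjusted p under 0.05 was reached by 8 of the 26 and by 24.6% of all genes. FUS1 averaged -0.60 there with a limma adjusted p of 0.0448, and PRM5 (0.0583) and PRM1 (0.0598) lay just above the threshold. With the repeat arrays as a block the count was 0, for the 26 and for all genes. Without a high copper array the calls were lost among the 26 and among all genes, and without a low copper array they rose in both. With genes on 3 arrays let in, AGA1 (0.0526) and FUS1 (0.0568) missed the threshold, and FUS1 also did without centring (0.061).

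In low copper alone, 0 of the 26 passed in limma, and 10 had an unadjusted p under 0.05, against 0.662% and 30.5% of all genes. PRM5 at an adjusted p of 0.0625 and MF(ALPHA)1 at 0.0647 were closest. A fit without 1 of the low copper arrays rests on the other alone, and its calls rose among the 26 and among all genes. PRM5 stood at 0.81 without low copper replicate 1 and at 1.18 without low copper replicate 2.

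The ratio in high copper minus that in low copper addresses whether copper alters the effect of the gene. Since the copper of the wild-type cells is not stated, a response of the null cells to copper itself cannot be told apart from it. No member passed for this difference (0 of 26), and neither did any other gene (0% of 5137), while 9 of the 26 and 15.4% of all genes had an unadjusted p under 0.05 in limma. The estimate for AGA1 was -1.18, with a single-gene 95% interval of -1.51 to -0.84 and an adjusted p of 0.224. The estimates were -0.72 (-1.11 to -0.33) for MF(ALPHA)2, -0.65 (-0.98 to -0.32) for SAG1 and -0.65 (-0.96 to -0.33) for KAR4, each with an adjusted p of 0.256. MSG5, STE3, MF(ALPHA)1 and FUS1 followed, from -0.37 to -0.32, and FIG2 lay on the other side at 0.58. These intervals are not adjusted for the number of genes. Without low copper replicate 2, the estimates were -1.26 for AGA1, -0.73 for KAR4, -0.73 for SAG1 and 2.68 for BAR1. For low copper these rest on low copper replicate 1 alone, the array that stood apart.

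**Figure D4:**
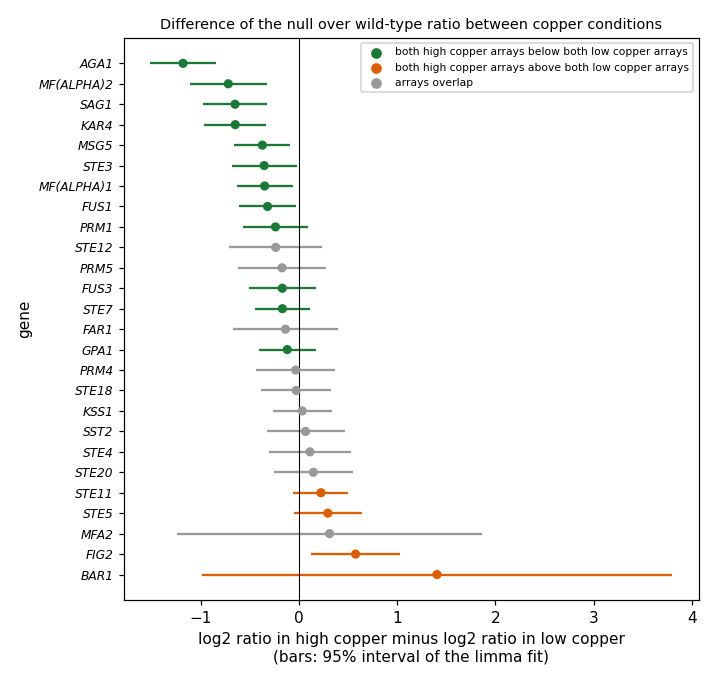
Log2 ratio in high copper minus log2 ratio in low copper (horizontal axis) for the 26 genes, with bars for the single-gene 95% interval of the limma fit. Green marks genes whose 2 high copper arrays lie below both low copper arrays, orange the opposite and grey overlap; AGA1 lies lowest at -1.18 and BAR1 has the widest interval.

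On 12 of the 26 genes (46.2%) both high copper arrays lay below both low copper arrays, against 27.1% of all genes tested, and on 4 (15.4%) they lay above, against 25.3%. The conditions overlapped on 10 (38.5%), against 47.7%. The 12 were AGA1, SAG1, KAR4, FUS1, PRM1, MF(ALPHA)1, MF(ALPHA)2, STE3, MSG5, FUS3, GPA1 and STE7. All 4 alpha-specific genes were among them, with medians of -0.21 and -0.22 on the high copper arrays and 0.29 on each low copper array. Of 8 genes without a value on low copper replicate 1 alone, 6 had both high copper values below the low copper value, against 45.7% of the 368 named genes with the same missing value. The genes share regulators and arrays and are not independent counts, and no test was made of these shares.

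**Figure D5:**
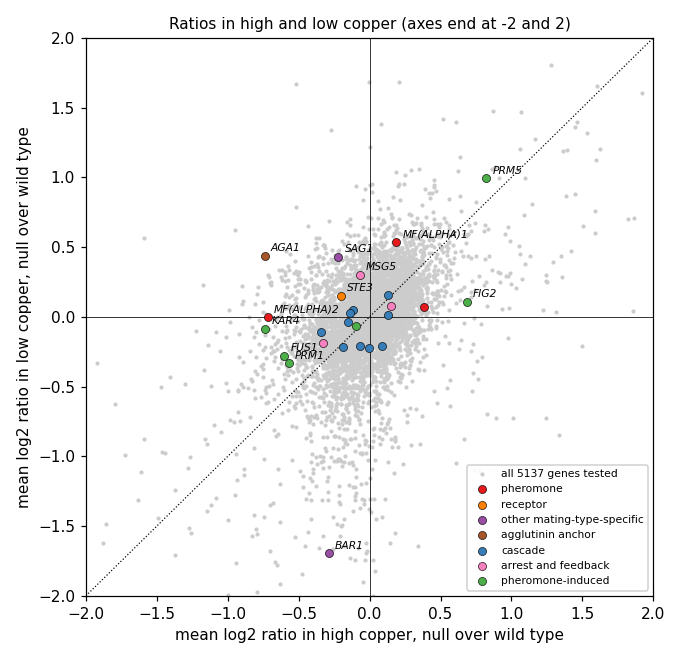
Mean log2 ratio of null over wild type in high copper (horizontal axis) and in low copper (vertical axis) for all 5137 genes tested (grey) and the 26 mating genes (coloured by role), with a dotted line of equal ratios. AGA1, SAG1, KAR4 and MF(ALPHA)2 lie above the line, PRM5 lies near it at the upper right, and the cascade genes lie near the centre.

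The G protein and kinase cascade stayed near the median of the arrays. Of its 10 genes, all measured on all 4 arrays, 0 passed in any of the 4 comparisons. Of all genes 11.7% passed over both conditions, 2.57% in high copper, 0.662% in low copper and 0% for the difference, so 0 of 10 says little. An unadjusted limma p under 0.05 was reached over both conditions by 1 (KSS1), and by 35.6% of all genes. STE12 reached it in high copper (24.6% of all genes), and KSS1 and STE11 in low copper (30.5%). The largest mean in size was that of STE12, the transcription factor at the end of the pathway, at -0.23 ± 0.22 (SD, n = 4). It stood at -0.39 and -0.29 in high copper and at -0.31 and 0.09 in low copper, with a limma adjusted p of 0.153. KSS1, a kinase that shares Ste7 with Fus3, was the most even, at -0.16 and -0.21 in high copper and at -0.27 and -0.17 in low copper, a mean of -0.20 ± 0.05 with 0.0838.

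The G protein subunits GPA1 (alpha), STE4 (beta) and STE18 (gamma) averaged -0.10, 0.07 and 0.14. The kinases STE20, STE11 and STE7 averaged -0.14, -0.11 and -0.03, the scaffold STE5 -0.06 and the kinase FUS3 -0.06. STE11 stood at 0.01 and -0.02 in high copper and at -0.22 and -0.24 in low copper, and STE5 at 0.08 and 0.09 in high copper and at -0.32 and -0.10 in low copper. Both were thus lower in low copper, unlike most genes of the set whose conditions did not overlap. Their differences of 0.22 and 0.29 had limma adjusted p of 0.383 and 0.369.

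Of the genes for arrest and feedback 0 of 3 passed over both conditions. FAR1, which halts the cell cycle, stood at -0.24 and -0.41 in high copper and at 0.04 and -0.41 in low copper, a mean of -0.26 ± 0.21 (SD, n = 4, limma adjusted p = 0.149). SST2, which shortens the active state of Gpa1, averaged 0.11 ± 0.13, with values between -0.02 and 0.26. MSG5, a phosphatase that acts on Fus3, stood at -0.07 on both high copper arrays and at 0.34 and 0.27 in low copper.

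In 3 further lists of mating genes, the shares that passed lay near the 11.7% of all genes. Of 11 genes for the processing of pheromones, 1 passed, KEX1, a carboxypeptidase that trims alpha-factor, at -0.40 ± 0.12 (SD, n = 4, limma adjusted p = 0.0422). KEX2, the endoprotease of the same route, stood at -0.27 ± 0.11 with 0.0518. Of 33 further pathway and mating genes tested, 3 were lower and 1 higher over both conditions, with a median of -0.18 beside -0.02 for all genes. The lower ones were the pheromone-regulated PRM8 at -0.56 ± 0.05, the cell surface protease gene YPS1 at -0.54 ± 0.30 and the wall glucanase gene SCW10 at -0.33 ± 0.07, whose spot lies in the displaced run and which had an adjusted p of 0.0443, or of 0.0794 with the run moved back. MDG1, known for its part in G protein signalling, was higher at 0.49 ± 0.27 (adjusted p = 0.0259). YPS1 stood at -0.80 on both high copper arrays and at -0.26 and -0.32 in low copper, and MDG1 at 0.67 and 0.78 in high copper and at 0.23 and 0.29 in low copper. In high copper alone 1 of the 33 passed as lower, YPS1 (limma adjusted p = 0.0304), and 1 as higher, MDG1 (0.0356). Of all genes 1.5% and 1.07% did. Of 8 haploid-specific genes outside the 36, 1 passed, CCW12, a cell wall protein, at 0.70 ± 0.32 (adjusted p = 0.0259).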

How the data were processed

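The authors deposited 1 log2 ratio per spot and array for 8832 spots, with values missing for some. Their image analysis, filters and normalization are not given in the sources used here, and the log2 base and the direction, Cy5 (null) over Cy3 (wild type), are assumptions. Intensities were not used here, so signal over background is unknown and the number of arrays limits precision. Names came from the platform annotation, updated through the RefSeq table of assembly R64; no coordinates are given because the array's build is unknown. Spots with a value on every array set the centre of each array, its median. Such spots were averaged by gene, which gave 5137 genes. limma 3.58.1 (R 4.3.3) fitted 1 mean per copper condition with lmFit and eBayes, on 2 residual and 2.22 prior degrees of freedom. For STE7 this left 1 of its 2 spots. Genes with fewer values are averages of what was measured. Replicates are numbered in record order. The fit was tested on simulated data. The members, lists and tests were chosen with earlier results of these data known. Named genes are all 36 members and, of each further list, at most the 4 genes with the smallest p; others were chosen after their values were seen.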

Additional observations from a re-analysis of the deposited data

Results flagged for a closer look

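BAR1 was the only one of 26 genes in which a single array stood apart from the other 3 by Dixon's criterion, which chance meets in about 1 of 20 groups. It stood at -2.96 on low copper replicate 1, against -0.42 on low copper replicate 2 and -0.24 and -0.34 on the high copper arrays.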

How the results depend on the processing

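The count of 5 genes over both conditions was 5 without centring, 5 with genes on at least 3 arrays, 7 with arrays scaled to equal spread, 6 with spots fitted separately and 7 with the displaced run moved back. It was 2 without a copper term, 0 with the replicate block of the arrays marked as repeats, and 0 to 11 with an array left out. The count of 3 in high copper was 7 with arrays scaled to equal spread, 1 with genes on at least 3 arrays, 6 with the displaced run moved back, 0 with the replicate block, 8 from the high copper pair alone and 0 to 8 with an array left out. The count of 0 in low copper was 1 with scaled arrays, and 0 to 6 with an array left out. The count of 0 for the difference was 0 to 4 with an array left out and 0 elsewhere. The remaining settings, including averaging all spots with a value, which was added after the data were seen, kept each count within 1.5 times. No called gene changed sign in any setting. With an array left out, the remaining array of that condition is assumed to vary like the other condition's pair, which alone estimates the spread. The calls among all genes moved in much the same way in those fits, so such counts are not particular to the mating genes. The repeat mark is not a shown pairing: deviations of the arrays marked as repeats from their condition means correlated at 0.09 across genes. The causes of the other changes were not tested. Depth is unknown, and 10 of the 36 genes lacked a value on at least 1 array.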

Other observations

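PRM5 is also an output of the cell wall integrity pathway, and 19 outputs of that pathway, PRM5 included, were tested. Of these 6 were higher and 1 lower over both conditions in limma, against 6.44% and 5.24% of all genes, with a median of 0.17 beside -0.02 for all genes, and 4 of the 19 had a mean below 0. The list was drawn up with earlier results of these data known and holds PRM5 itself, so these shares are no separate support. PIR1 and HSP150, wall proteins of the Pir family, stood at 0.62 ± 0.16 and 0.66 ± 0.33 (SD, n = 4), and KDX1, a kinase-like protein, at 0.45 ± 0.14. SRL3 at 0.35 and the wall glucanase gene BGL2 at 0.41, named after their values were seen, completed the 6 together with PRM5, and YPS1 was the lower one. The rest did not pass, among them CRH1 at 0.16, SLT2 at 0.13, PIR3 at 0.10 and PST1 at -0.04. In high copper alone 0 of the 19 passed as higher, against 1.07% of all genes. There 1 passed as lower, YPS1 at -0.80 on both arrays (limma adjusted p = 0.0304), against 1.5% of all genes. In low copper alone 0 passed as higher and 0 as lower, against 0.234% and 0.428%. The medians of the list were 0.07 in high copper and 0.35 in low copper. CWP1, a wall mannoprotein spotted within the displaced run, averaged 0.53 (adjusted p = 0.129), or 0.86 (0.0119) once the run was moved back. Of 13 genes of filamentous growth, which shares Ste12 with mating, 11 were tested. FLO11 and CLN1 lacked a spot measured on all 4 arrays. Past the limma threshold were 0 of the 11, where 11.7% of all genes were, which for so few genes says little. An unadjusted p under 0.05 was reached by 2 of them, KSS1 and FLO8, and by 35.6% of all genes.

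Of 12 genes for silencing and mating-type switching, 1 passed over both conditions, where 11.7% of all genes did. It was MATALPHA1, the activator of alpha-specific genes, at 0.16 and 0.27 in high copper and at 0.44 and 0.37 in low copper, a mean of 0.31 ± 0.12 (SD, n = 4, limma adjusted p = 0.0452). HMLALPHA1, the silent copy of the same sequence, stood at 0.30 ± 0.20 with 0.071, and the 2 spots cannot be told apart. The alpha2 entries did not pass. MATALPHA2 stood at 0.07 ± 0.07 with 0.43. HMLALPHA2, spotted within the displaced run, averaged 0.01 with 0.934, or 0.11 with 0.288 once the run was moved back. SIR3, a silencing factor, stood at -0.37 ± 0.26 with 0.0509.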
